A study of Mus musculus with 22 samples.

Results

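The 2 ends of a differentiation course were compared: untreated mouse embryonic stem (ES) cells and embryoid bodies kept for 28 days. They account for 4 of the 22 libraries of the series, 2 at each end, and were chosen by their titles and treatment; the source label reads embryoid body for all 22, the ES libraries included. The libraries titled ES held naive pluripotency genes at high levels and many lineage genes at or near 0, as described below. J1 is an established mouse ES cell line. Embryoid bodies are aggregates that ES cells form when the factors that hold them in self-renewal are withdrawn, and in which derivatives of the germ layers arise together. The ES libraries came from J1 cells labelled as not treated, and the day 28 (D28) libraries from J1 embryoid bodies in 0.1% DMSO, the vehicle for TBBPA (tetrabromobisphenol A, a flame retardant). The remaining 18 libraries are DMSO embryoid bodies of days 4, 9, 12 and 18, and embryoid bodies of days 4, 9, 12, 18 and 28 at 10 nM or 100 nM TBBPA. They are used below to estimate the spread between libraries, to follow the genes between the ends, and to look again at genes found at 1 end alone. Time, aggregation and the vehicle enter together between these ends and cannot be told apart. The labels name no separate cultures for the 2 libraries of a group, so p-values measure the spread between libraries, which may be technical. That spread was pooled over all control groups. The ES libraries differed from each other more than any DMSO pair did, so the p-values may understate the spread of the ES libraries.

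RNA was sequenced, and each library is a table of genes with an expected count (reads assigned to the gene) and an FPKM (the same scaled to transcript length and to library depth, so that levels of different genes can be set side by side). Genes that a library's table leaves out count as 0 here and are called not listed. The 4 libraries held between 18158583 and 18738348 counts. Listed were 16586 and 16427 genes in the ES libraries and 17816 and 17805 at D28. The ES libraries differed from each other more than the D28 libraries did: 0.866% of genes were at least 2-fold apart between them against 0.111%, on log2(FPKM + 1). The nodal inhibitor Lefty1 was at 37.1 FPKM in one ES library and 6.52 in the other, and the intermediate filament gene Vim at 92.0 and 47.4. For most genes described, the values of both ES libraries are therefore given. Without either of them, the number of genes called in each direction moved by at most 4 in any list below.

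Naive ES cells are kept in self-renewal by a network of transcription factors around Pou5f1 (Oct4), Sox2 and Nanog. They divide quickly with a short first gap phase and hold many lineage genes silent. In embryoid bodies this network gives way first to a primed, epiblast-like state and then to ectoderm, mesoderm and endoderm, from which epithelia, muscle, connective tissue and nerve cells form without the layout of an embryo.

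Of 16203 genes with enough counts to test, 13467 passed at an adjusted p under 0.05 (edgeR's quasi-likelihood test with Benjamini-Hochberg adjustment, which every adjusted p below comes from), or 83.1%. Higher at D28 were 7284 genes, 45% of those tested, and lower were 6183, or 38.2%. So wide a change sets the background for every list below, and the size of a change says more than its passing. The directions were unlike in size. At least 2-fold higher were 5186 genes (32%) and at least 2-fold lower 3273 (20.2%). At least 4-fold higher at D28 were 3616 genes (22.3%) and at least 4-fold lower 1128 (6.96%), and at least 32-fold higher were 1453 genes against 60 lower. At 1 FPKM or more in both libraries were 11104 genes in ES cells and 13212 at D28, of which 10642 were shared. In a fit of the 4 compared libraries alone 12207 genes passed, 6441 of them higher and 5766 lower. The median log2 change of all genes tested was 0.15 without the first ES library and 0.16 without the second, beside 0.13 with both. The scaling matters for small changes: with library size in place of TMM (edgeR's trimmed-mean scaling), the median log2 change of all genes tested moved from 0.13 to 0.43, and the share of passed genes that were higher at D28 from 54.1% to 63.5%. Deposited FPKM carry no such scaling, so a gene with equal FPKM at both ends has a fitted change below 0.

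**Figure D1:**
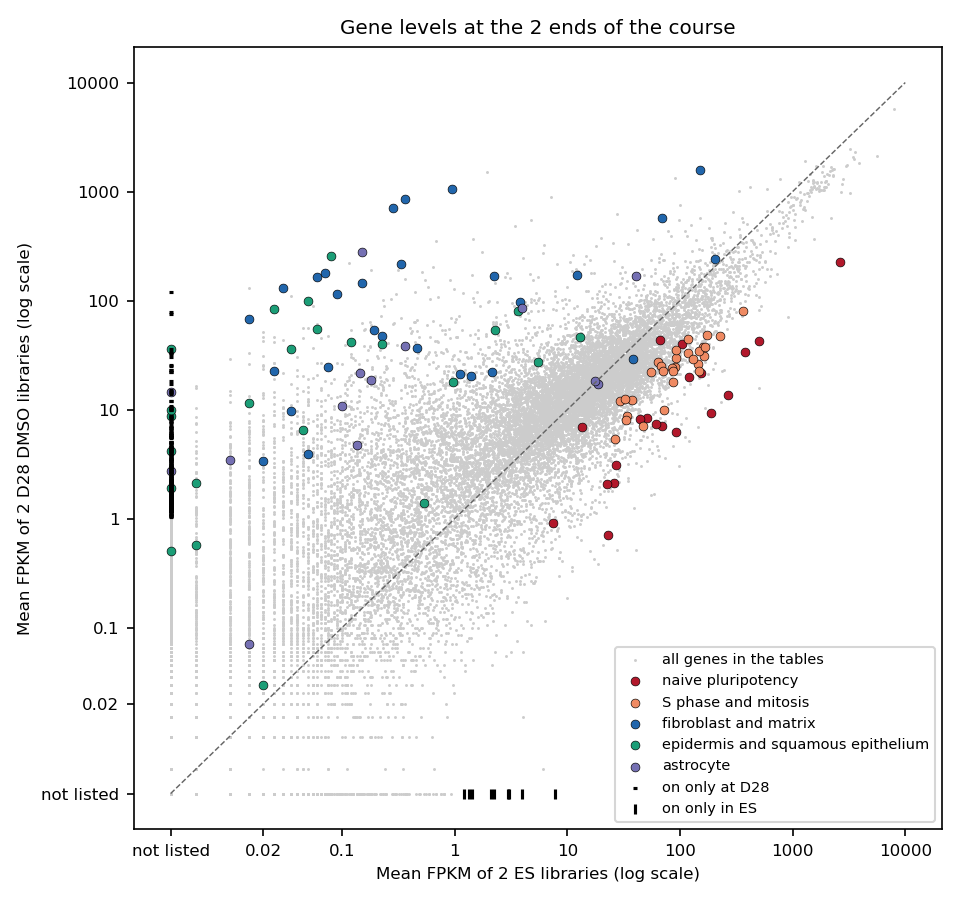
Mean FPKM of the 2 ES libraries (horizontal, log scale) against that of the 2 D28 DMSO libraries (vertical, log scale), 1 point a gene, with 5 gene lists in colour; genes not listed at an end are drawn at the edge marked so. Naive pluripotency and cell cycle genes lie below the dashed line of equality and most matrix, squamous and astrocyte genes far above it, and the 234 genes on at D28 alone form the column at the left edge.

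Genes found at 1 end alone were few in ES cells and many at D28. A gene was counted as on at 1 end alone when it had at least 1 FPKM in both libraries of that end and no count in either library of the other. This held for 9 genes in ES cells and 234 at D28. At the limit, the weakest ES gene inside had 1.03 FPKM in its lower library and the nearest outside 0.98; at D28 these were 1 and 0.99. It follows from the same rule that 11095 of the 11104 genes on in ES cells were still listed in at least 1 D28 library. Likewise, 12978 of the 13212 genes on at D28 were listed in at least 1 ES library. The count of genes on at 1 end alone depends on depth and on single libraries. Without the first ES library it was 385 at D28, and without the second D28 library it was 18 in ES cells. Where a gene had no count at 1 end, its fold is given as a lower bound against 3 counts per library.

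The 9 ES genes were Rln3 (relaxin-3, a peptide hormone), the histone genes Hist1h3c, Hist1h2bk, Hist1h2af and Hist1h2ad, the predicted genes Gm40453 and Gm10651, Spint5, and Npw (neuropeptide W). Rln3 was the most abundant, at 7.03 and 8.47 FPKM in the ES libraries, at least 21.0-fold higher than at D28. The others had means under 5 FPKM, and bounds from 3.58-fold upward. All but Hist1h2ad passed the test (adjusted p = 0.065). Histone genes have near-identical copies among which reads may be divided, so the 4 histone genes are uncertain. The TBBPA embryoid bodies of day 28, which did not enter the choice, hold 1 library per dose. Of the 9 genes, 7 were not listed at 10 nM and 4 were not listed at 100 nM. Hist1h2af was at 3.01 FPKM in the first and not listed in the second.

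The most abundant of the 234 D28 genes, Mgp (matrix Gla protein, an inhibitor of calcification), was at 122 and 118 FPKM, at least 437-fold higher than in ES cells. Cbr2 (a carbonyl reductase abundant in lung) was at 79.3 and 79.2 FPKM, and Fxyd1 (phospholemman, a regulator of the sodium pump) at 76.8 and 74.8. Next were Sprr1a (a cornified envelope precursor of squamous epithelium, 38.5 and 33.0), Ly6h (34.2 and 33.1), Fmod (fibromodulin, a collagen-binding proteoglycan, 32.2 and 33.3), Myl1 (a fast skeletal myosin light chain, 30.3 and 33.8) and Gkn1 (gastrokine, of the stomach lining, 29.7 and 30.4). Clec3b (tetranectin, 26.7 and 24.6) and Serpinb11 (25.1 and 25.2) closed the first 10. In each of these the 2 libraries lay close together. Of the 234 genes, 27 had a mean of at least 10 FPKM, and the bounds ran from 2.90-fold to 583-fold (Fmod). Of the 234, 233 could be tested and 233 passed, which the choice of genes absent at 1 end largely fixes.

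These D28 genes were also looked up in day 28 libraries that the choice had not used. All 234 were listed in both TBBPA libraries of day 28, 205 at 1 FPKM or more at 10 nM and 185 at 100 nM. The share among all 13212 genes on at D28 was not counted. Whether the 234 differ from those genes in this was therefore not tested. Levels there were not always alike: Fxyd1 was at 75.7 and 82.8 FPKM, and Gkn1 at 54.4 and 44.9, while Cbr2 was at 65.4 and 31.7 and Myl1 at 15.1 and 4.78. With 1 library per dose these differences have no replicate check. By lineage list, 31 of the 234 fell in 1 of the 38 lists used here. The lists have 805 entries in the tables, which hold 19721 genes. Among the 31 were 5 of 24 squamous genes (Ivl, Krt1, Sprr1a, Sprr1b, Sprr3) and 4 of 26 secretory genes (Bpifa1, Lcn2, Reg3g, Tff3). There were also 3 of 22 macrophage genes (C1qa, Lyz1, Lyz2) and 3 of 15 adipocyte genes (Cd36, Fabp4, Pparg). Most of the 234 were in no list, and the lists were chosen with earlier results known, so these counts do not give the make-up of the 234.

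The stretch before the start of transcription is shown for the first 2 genes of each end that have an entry, as examples only. RefSeq promoter sequences (GRCm38.p6) were found for 168 of the 234 D28 genes, 7 of the 9 ES genes and 12714 of the 16203 genes tested. Each is the 250 bases before the start, 5′ to 3′ on the gene's strand, with TATAAA and CCAAT in capitals. Rln3 lies at chr8:84044980-84045229, Hist1h3c at chr13:23745522-23745771, Cbr2 at chr11:120732022-120732271 and Fxyd1 at chr7:31054854-31055103, all on the minus strand.
Rln3: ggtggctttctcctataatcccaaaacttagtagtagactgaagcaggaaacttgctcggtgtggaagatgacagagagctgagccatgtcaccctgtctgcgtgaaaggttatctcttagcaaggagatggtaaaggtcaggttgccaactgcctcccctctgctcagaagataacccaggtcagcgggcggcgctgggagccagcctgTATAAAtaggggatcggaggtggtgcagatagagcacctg
Hist1h3c: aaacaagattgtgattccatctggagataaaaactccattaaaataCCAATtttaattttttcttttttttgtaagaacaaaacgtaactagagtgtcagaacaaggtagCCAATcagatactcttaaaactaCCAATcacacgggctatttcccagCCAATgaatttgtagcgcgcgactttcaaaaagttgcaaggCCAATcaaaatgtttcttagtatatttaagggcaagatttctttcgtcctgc
Cbr2: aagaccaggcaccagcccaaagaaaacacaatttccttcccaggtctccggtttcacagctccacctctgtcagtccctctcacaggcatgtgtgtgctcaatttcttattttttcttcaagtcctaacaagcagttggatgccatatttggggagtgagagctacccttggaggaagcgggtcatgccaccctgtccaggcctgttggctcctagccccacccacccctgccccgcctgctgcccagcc
Fxyd1: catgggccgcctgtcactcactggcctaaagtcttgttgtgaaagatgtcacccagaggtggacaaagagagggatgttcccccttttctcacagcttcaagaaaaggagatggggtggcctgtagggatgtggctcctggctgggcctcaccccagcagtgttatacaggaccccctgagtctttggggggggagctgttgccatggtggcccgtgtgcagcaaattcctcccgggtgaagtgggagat
The Rln3 stretch holds 1 TATAAA, 40 bases before the start, and Hist1h3c holds 5 CCAAT. Neither motif occurs in the Cbr2 or Fxyd1 stretch, which have 3 CpG each. These examples do not stand for the genes of their end. Searched on both strands over such stretches, TATAAA was found in 22.6% of the D28 genes, 7.28% of all genes tested and 13.0% of all 27025 genes in the table. CCAAT was found in 32.1%, 36.4% and 34.5% of these. The E-box CACGTG, which is also counted among matches of the wider CANNTG, was found in 3.57%, 8.08% and 6.05% of these. CANNTG was found in 70.8%, 58.6% and 66.0%. Of the 7 ES genes with a promoter, 2 held TATAAA, 5 held CCAAT and 3 held CANNTG. The median number of CpG was 3 in the D28 genes, 14 in the genes tested and 6 in all genes in the table. It was 9 in genes at least 4-fold higher at D28, 8 in those at least 4-fold lower and 6 in the ES genes. These are descriptions of letters in a window, and tissue-specific genes at large were not set beside them.

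Naive pluripotency genes were lower at D28, and most were still detected at 1 FPKM or more. All 20 naive genes tested fell, with a median log2 change of -3.51 beside 0.13 over all genes, and without either ES library 20 of 20 still fell. Nanog was at 535 and 468 FPKM in the ES libraries and 43.2 and 41.5 at D28, a log2 change of -3.89 ± 0.07 (SE; adjusted p = 4.32e-15). Esrrb, an orphan nuclear receptor of the naive state, went from 198 and 178 to 8.77 and 9.81 FPKM (-4.64 ± 0.07, adjusted p = 1.63e-15). The ends of the list were far apart: Nr0b1 (Dax1) kept 2.51% of its ES level on CPM (counts scaled to library depth), while Klf5, which epithelia also express, kept 53.6%, with a list median of 8.79%. Dppa5a was still at 228 and 222 FPKM, against 2527 and 2738 in ES cells, and 18 of the 20 genes remained at 1 FPKM or more. In bulk RNA, fewer cells of a type and less RNA per cell cannot be told apart.

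Core and primed genes were less uniform: of 24 tested, 20 fell and 4 rose (median -2.24). Pou5f1 was at 857 and 966 FPKM in ES cells and 74.0 and 68.0 at D28, a change of -3.95 ± 0.08. Tdgf1 (Cripto, the Nodal co-receptor) had the largest fall of the list, from 473 and 532 to 16.2 and 15.6 FPKM (-5.28 ± 0.08, adjusted p = 8.89e-16). Sox2, shared with neural progenitors and squamous epithelium, kept more of its level, at 259 and 198 FPKM before and 79.3 and 78.5 after (-1.84 ± 0.09). The 4 that rose were Epcam, an epithelial adhesion gene (1.83 ± 0.10), Otx2 (0.45 ± 0.12), Lin28a (0.70 ± 0.19) and Fgf5, the last from 0 and 0.02 to 0.12 and 0.15 FPKM. Lin28a, at 13.7 and 7.70 FPKM in ES cells and 21.6 and 21.0 at D28, did not follow the other pluripotency genes; its relative Lin28b fell (-0.58 ± 0.13), a call lost with library size. Among genes of at least 10 FPKM the largest fall was of a metabolic enzyme: Bhmt, which remethylates homocysteine with betaine, went from 39.1 and 42.3 to 0.42 and 0.61 FPKM (-6.59 ± 0.16), and Dmgdh, the next enzyme of betaine breakdown, from 19.2 and 18.6 to 0.33 and 0.44 (-5.90 ± 0.18). Gtsf1l, Krt42, Mcf2, Pla2g1b, Gm6792, Khdc3, Nr0b1 and Tdgf1 made up the rest of the 10, with falls from -6.03 to -5.28.

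Genes of the germ line were mixed. Of 28 tested, 14 fell, 8 rose and 6 did not pass (median -0.56; 9 fell and 10 rose with library size as the scaling); without the first ES library 16 fell, and without the second 11. The falls were led by Rpl10l, a testis ribosomal protein gene (127 and 94.4 to 4.78 and 6.33 FPKM, -4.61 ± 0.16), Hsf2bp, a meiotic recombination factor (52.2 and 59.7 to 5.14 and 5.17, -3.80 ± 0.13) and Tdrd12, of the piRNA pathway (37.5 and 40.0 to 4.32 and 4.05, -3.31 ± 0.10). Tdrkh rose (0.61 and 0.64 to 4.19 and 3.46 FPKM). Dazl, an RNA-binding protein of germ cells, was at 13.2 and 16.2 FPKM in ES cells and 18.3 and 17.97 at D28, with a fitted change of 0.00 ± 0.09 (0.30 with library size as the scaling, which passed). The germ cell helicase Ddx4 was at 1.89 and 4.26 FPKM against 2.20 and 2.10 (adjusted p = 0.0211), so its ES libraries lay on both sides of D28, and its call was lost without the second ES library. Genes of the rare 2-cell-like state were at or under 1 FPKM at both ends; of 7 tested, 1 rose (Sp110, from 0.02 and 0.01 to 0.51 and 0.46 FPKM) and 1 fell (Zscan4c), with 5 not passed.

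Every S phase and mitosis gene was lower at D28, to a narrow band of levels. All 30 fell, by -3.16 to -1.53 on the log2 scale, and their D28 levels were 11.2% to 34.7% of those in ES cells, with a median of 21.3%. The helicase subunit Mcm5 was at 145 and 144 FPKM in ES cells and 26.7 and 25.6 at D28 (-2.77 ± 0.06, adjusted p = 1.13e-14). Ccne1, the cyclin of entry into S phase, fell most, from 85.5 and 57.2 to 9.71 and 9.97 FPKM. The ribonucleotide reductase subunit Rrm1 fell least, from 63.1 and 63.9 to 27.0 and 27.3. Other regulators of the cycle moved less evenly. Of 13 CDK inhibitors, D cyclins and retinoblastoma family genes, 8 rose, 3 fell and 2 did not pass (9 and 2 with library size as the scaling). Ccnd2 was close to absent in ES cells (0.26 and 0.20 FPKM) and at 96.8 and 106 FPKM at D28, a change of 8.47 ± 0.11. Cdkn1c (p57, an imprinted CDK inhibitor) went from 0.45 and 0.51 to 46.3 and 46.0 FPKM (6.27 ± 0.13) and Cdkn2b (p15) from 2.20 and 2.55 to 33.2 and 33.6 (3.51 ± 0.13). Cdkn1a (p21) was already at 129 and 130 FPKM in ES cells and rose by 0.83 ± 0.06. Ccnd1 and Ccnd3 fell (-0.68 and -0.48), though the call of Ccnd1 was lost with library size.

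**Figure D2:**
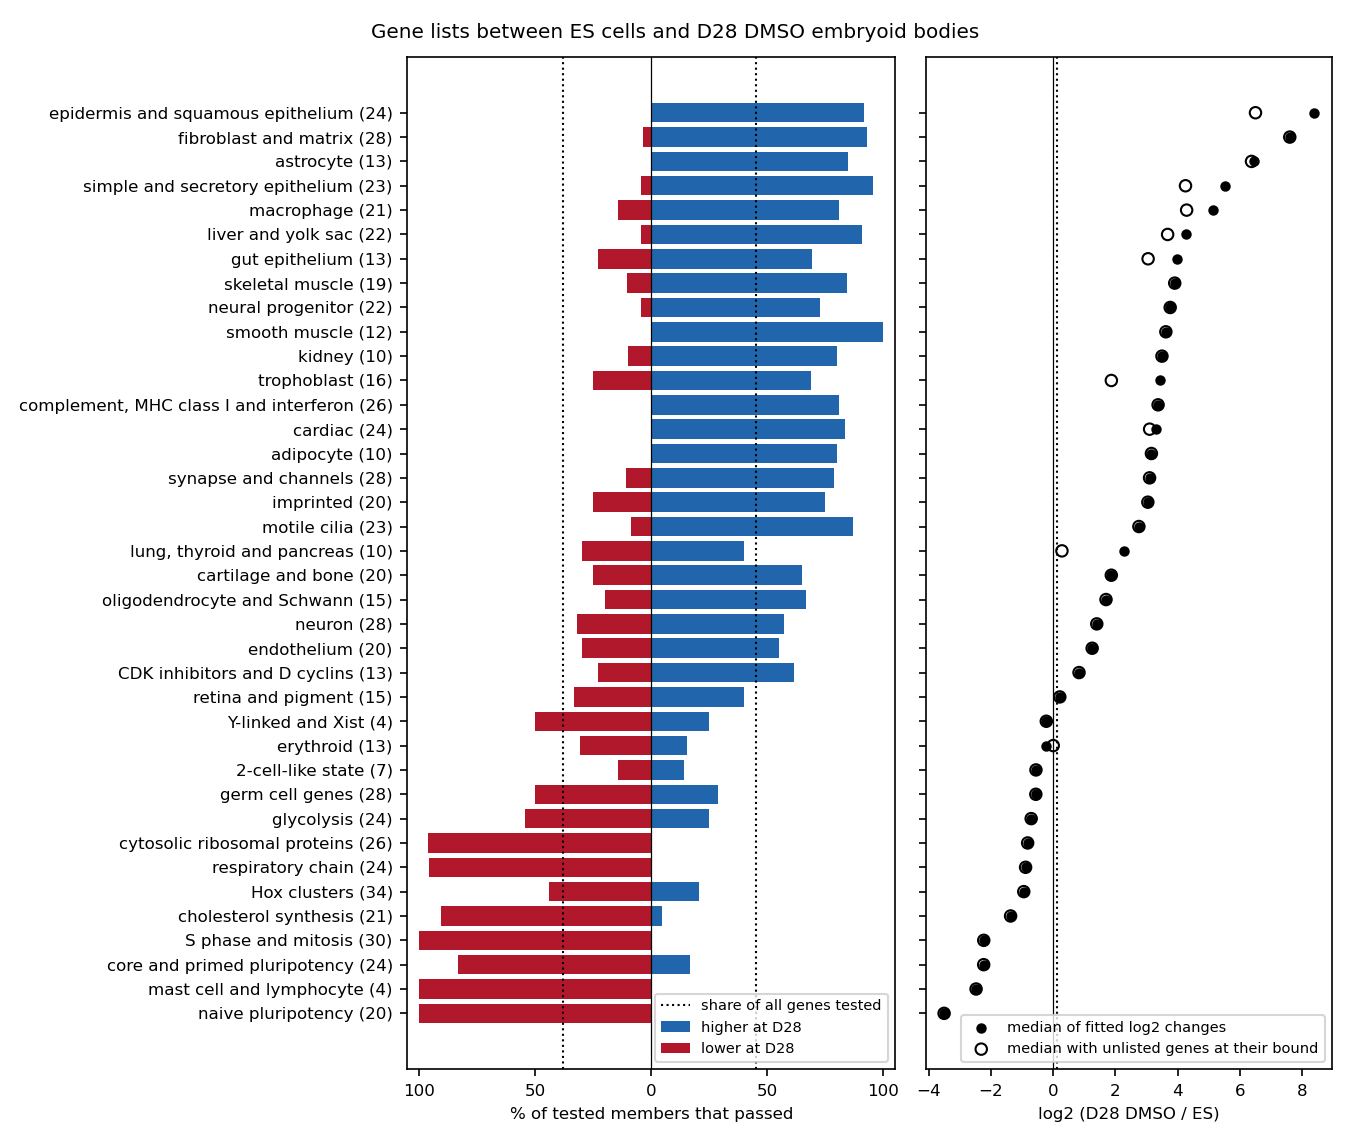
Left, the share of tested members of each list that passed higher (blue) or lower (red) at D28, with dotted lines at the shares of all genes tested, 45% and 38.2%; the number tested follows each name. Right, the median log2 change of each list, as fitted (filled) and with genes that have no count at 1 end set to their bound (open), with a dotted line at the median of all genes; naive pluripotency is lowest, and squamous epithelium is highest as fitted but lies below fibroblast and matrix at the bound.

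Collagens and other matrix genes rose from low levels to some of the highest at D28. Of 28 fibroblast and matrix genes 26 rose, 1 fell and 1 did not pass, with a median log2 change of 7.61, and their summed level went from 499.5 and 479 FPKM to 6745 and 6789. Col1a1, a chain of type I collagen, was at 1.06 and 0.82 FPKM in ES cells and 1042 and 1075 at D28 (9.83 ± 0.11, adjusted p = 1.01e-16). Col3a1 went from 0.51 and 0.21 to 842 and 868 FPKM, Dcn (decorin, a proteoglycan of collagen fibrils) from 0.06 and 0.06 to 165 and 167, and Lox (lysyl oxidase, which crosslinks collagen and elastin) from 0.04 and 0.02 to 128 and 131. In ES cells 9 of the 28 were at 1 FPKM or more, among them Fn1 and Sparc, while Lum was listed in 1 of the 2 libraries, at 0.03 FPKM. Sparc was abundant at both ends (147 and 157, then 1618 and 1556 FPKM). Fn1 (fibronectin) was at 204 and 203 FPKM before and 237 and 242 after, with a fitted change of -0.09 ± 0.05 that did not pass (adjusted p = 0.0989); with library size as the scaling it was 0.21 and passed (adjusted p = 0.000972), so its direction depends on the scaling. Timp1 fell, from 30.5 and 45.9 to 28.1 and 29.8 FPKM (-0.70 ± 0.15).

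Cartilage and bone genes were split: of 20 tested, 13 rose, 5 fell and 2 did not pass (median 1.87). The chondrocyte regulator Sox9 rose from 0.04 and 0.25 to 22.2 and 21.1 FPKM and Col2a1 from 0.96 and 0.60 to 13.5 and 13.7. Alpl, the tissue-nonspecific alkaline phosphatase that also marks ES cells, fell from 149 and 144 to 19.3 and 19.4 FPKM (-3.24 ± 0.06), and Spp1 (osteopontin) from 347 and 363 to 73.1 and 70.2 (-2.61 ± 0.08). The osteoblast genes Bglap and Ibsp were listed in neither ES library, and Bglap in neither D28 library. Of 10 adipocyte genes tested 8 rose and 2 did not pass (median 3.16). Cebpa rose from 0.41 and 0.48 to 13.3 and 13.6 FPKM, while Adipoq and Cfd, of mature fat cells, were in neither D28 library.

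Genes of all 3 kinds of muscle rose. All 12 smooth muscle genes rose (median 3.62): Acta2 from 0.75 and 0.27 to 179.9 and 184 FPKM (8.02 ± 0.14) and Tagln from 1.12 and 0.84 to 128 and 128 (6.71 ± 0.09). Both are also made by activated fibroblasts; Myh11, of mature smooth muscle, was at 1.15 and 1.11 FPKM. Of 19 skeletal genes tested 16 rose, 2 fell and 1 did not pass (median 3.91). Myog, a regulator of muscle differentiation, rose from 0.07 in each library to 8.04 and 7.63 FPKM, and Acta1, skeletal actin, from 0.08 and 0.04 to 50.5 and 54.2. Fetal myosin Myh8 (7.63 and 8.14 FPKM) was far above the adult form Myh1 (0.05 and 0.09). Mylpf, a fast myosin light chain, went the other way, from 104 and 77.7 to 39.7 and 36.9 FPKM (-1.48 ± 0.12). Of 24 cardiac genes 20 rose and 4 did not pass (median 3.30; 3.10 with unlisted genes at their bound). Myl3 rose from 0.56 and 0.73 to 66.1 and 62.9 FPKM, Myh6 from 0.24 and 0.19 to 11.3 and 11.9, and Gata4, which endoderm shares, from 1.09 and 2.10 to 45.4 and 45.0. The heart regulators Nkx2-5 (0.29 and 0.32, then 0.95 and 0.47 FPKM) and Tbx5 did not pass, although both passed higher with library size.

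Astrocyte genes rose, and neuronal genes moved in both directions. Of 13 astrocyte genes tested 11 rose and 2 did not pass (median 6.44). Gfap, the astrocyte intermediate filament, was at 0.22 and 0.08 FPKM in ES cells and 278 and 277 at D28 (10.56 ± 0.16, adjusted p = 1.48e-15). Aqp4, the water channel of astrocyte endfeet, had no count in ES cells and 14.1 and 14.7 FPKM at D28, at least 467-fold higher. The glutamate transporter Slc1a3 rose from 0.46 and 0.26 to 38.5 and 38.9 FPKM. Of 22 neural progenitor genes 16 rose, 1 fell and 5 did not pass (median 3.76), with Fabp7 (0.44 and 0.14 to 64.0 and 59.9 FPKM) and Zic1 (0.11 and 0.10 to 16.3 and 18.1) among them. Sox1 fell slightly, from 4.16 and 4.36 to 3.40 and 3.73 FPKM (-0.56 ± 0.09).

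Of 28 neuron genes 16 rose, 9 fell and 3 did not pass (median 1.40), and the summed level of the list was 164 and 126 FPKM in ES cells and 149.9 and 146 at D28. Those that fell included genes widely used as neuronal markers. Stmn2, a growth-cone tubulin regulator, went from 80.5 and 63.2 to 17.0 and 14.7 FPKM (-2.48 ± 0.11). The neurofilament Nefl fell from 14.2 and 12.3 to 3.26 and 3.66 (-2.24 ± 0.12), and Nefh from 11.2 and 6.04 to 0.52 and 0.46 (-4.43 ± 0.28). Tubb3 was at 22.3 and 14.5 FPKM in ES cells and 16.4 and 14.9 at D28 (-0.53 ± 0.15), a call lost with library size. Genes with little or no ES transcript rose instead: Map2 from 0.28 and 0.23 to 10.7 and 9.79 FPKM, Chgb from 0.34 and 0.10 to 18.8 and 18.1, and the synaptic vesicle fusion gene Snap25 from 0.04 and 0.05 to 2.36 and 2.17. Of 28 synapse and channel genes 22 rose, 3 fell and 3 did not pass (median 3.10). The fall of the NMDA receptor subunit Grin1 was the largest of the 3 (15.98 and 19.2 to 3.03 and 2.95 FPKM, -2.82 ± 0.12). Of 15 oligodendrocyte and Schwann cell genes 10 rose, 3 fell and 2 did not pass. Pmp22, which fibroblasts share, rose from 0.57 and 0.92 to 61.5 and 56.9 FPKM; the myelin gene Mobp fell, and Sox10 was at 0.14 and 0.22 FPKM at D28. Retina and pigment genes were evenly split, with 6 higher, 5 lower and 4 not passed, and their median of 0.21 changes sign with the filter, the unit or a library left out.

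Genes of squamous epithelium rose from near 0. Of 24 genes 22 rose and 2 did not pass, with a median of 8.37, or 6.50 with genes unlisted in ES cells at their bound, which lies below the 7.61 of the fibroblast list. Krt15, a basal keratin, was at 0.13 and 0.03 FPKM in ES cells and 254.7 and 259.9 at D28 (11.32 ± 0.16, adjusted p = 6.46e-16). The basal keratins Krt5 (97.4 and 101 FPKM) and Krt14 (53.9 and 56.3) were each at 0.07 FPKM or less in the ES libraries. The regulator Trp63 rose from 0.03 and 0.06 to 6.54 and 6.32 FPKM, and the cornified envelope gene Lor from 0.12 in each to 37.97 and 46.1. Krt4 (79.7 and 87.7) and Krt13 (40.2 and 40.2), of moist squamous lining, stood above the skin keratins Krt1 (8.51 and 8.83) and Krt10 (18.2 and 17.5). Upk1b, a uroplakin of urothelium, was at 132 and 130 FPKM, with 1 read in the ES libraries.

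Of 23 genes of simple and secretory epithelium tested 22 rose and 1 fell (median 5.52, or 4.25 at the bound). Krt19 rose from 4.73 and 3.26 to 250.6 and 245 FPKM (5.64 ± 0.11), Krt18 from 8.19 and 14.2 to 261 and 266 and the tight junction gene Cldn6 from 5.90 and 4.99 to 169.9 and 160.2. Elf3, an epithelial transcription factor, fell from 76.4 and 72.2 to 48.0 and 44.6 FPKM. Cdh1, the adhesion gene of ES cells and epithelia, fell by 1.18 on the log2 scale yet was still at 84.8 and 83.7 FPKM. Of 23 motile cilia genes tested 20 rose, 2 fell and 1 did not pass (median 2.75). Foxj1, the regulator of motile ciliogenesis, rose from 0.25 and 0.41 to 27.6 and 26.3 FPKM (6.05 ± 0.15). Tekt1 and Rfx2 fell (-3.16 ± 0.22 for Tekt1), although they belong to the same axonemal and regulatory sets.

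Endodermal organs were represented unevenly. Of 22 liver and yolk sac genes tested 20 rose, 1 fell and 1 did not pass (median 4.26, or 3.68 at the bound; 5.21 without the second ES library). The thyroid hormone carrier Ttr rose from 0.22 and 0.09 to 53.7 and 54.5 FPKM, Afp (alpha-fetoprotein) from 0.52 and 0.10 to 38.1 and 40.4, and the endoderm regulators Foxa2 (0.05 and 0.10 to 22.9 and 24.5) and Sox17 (0.12 and 0.21 to 27.8 and 28.8) alike. Alb (albumin) was low, at 2.23 and 2.41 FPKM. Of 13 gut genes tested 9 rose, 3 fell and 1 did not pass (median 3.97, or 3.05 at the bound). The gastric genes stood out by level: Gkn2 was at 111 and 109 FPKM, from 1 read in ES cells, and the pepsinogen gene Pga5 rose from 1.23 and 1.48 to 48.7 and 48.9. Of the intestinal regulators, Cdx2 rose to 2.26 and 1.72 FPKM, and Cdx1 fell from 8.84 and 9.25 to 0.28 and 0.54 (-4.75 ± 0.25). Of 10 lung, thyroid and pancreas genes tested 4 rose, 3 fell and 3 did not pass (median 2.28, or 0.28 at the bound), and with DESeq2 1 fell in place of 3. The thyroid and palate factor Foxe1 reached 13.4 and 13.8 FPKM, and Ins2 (insulin) was listed at neither end. Of 10 kidney genes 8 rose, 1 fell and 1 did not pass. Podxl, of podocytes and other apical surfaces, rose from 6.13 and 5.96 to 98.2 and 95.2 FPKM (3.70 ± 0.06), and Nphs1 (nephrin) fell (-3.13 ± 0.15).

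**Figure D3:**
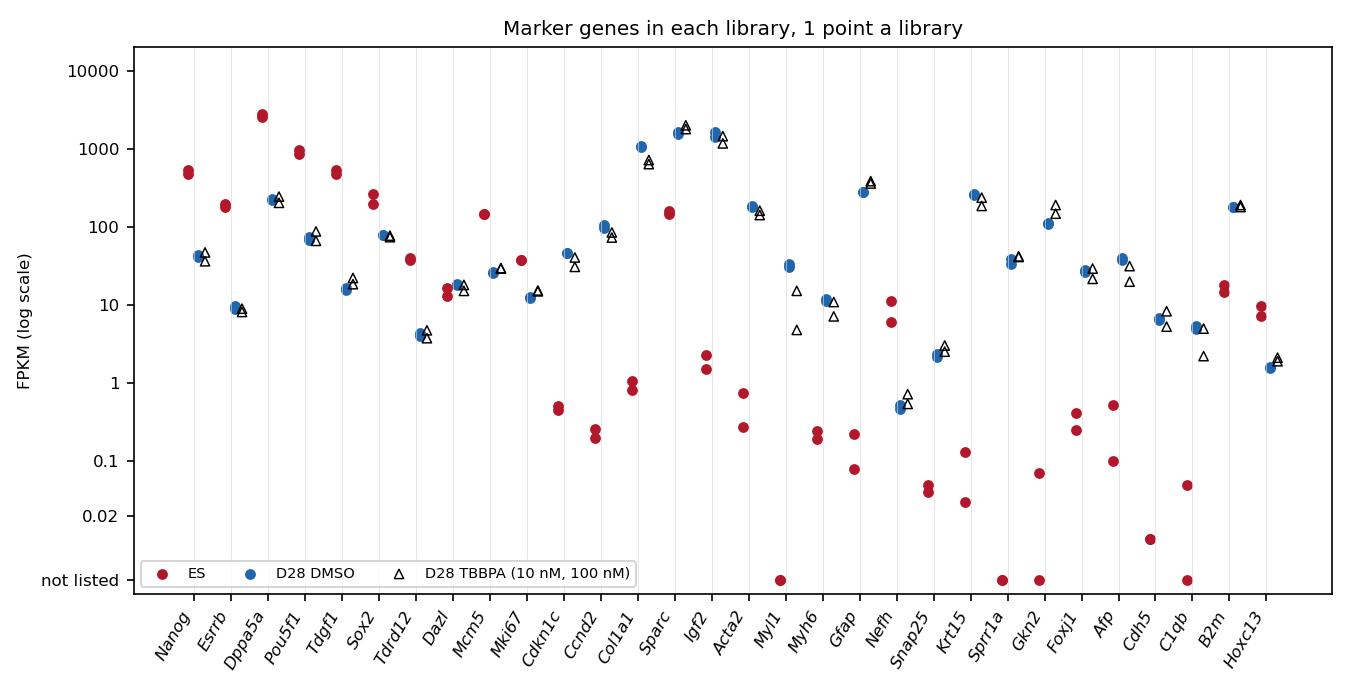
FPKM (log scale) of 30 genes in each ES library (red), each D28 DMSO library (blue) and the single D28 libraries of 10 nM and 100 nM TBBPA (open triangles, not used in any test here). The 10 genes at the left, of pluripotency, germ line and cell cycle, stay above 1 FPKM at both ends, while most lineage genes to their right start under 1 FPKM in ES cells; Nefh and Hoxc13 go the other way.

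Endothelial, erythroid, mast cell and lymphocyte markers did not rise as whole lists, while most macrophage markers did rise. Of 20 endothelial genes 11 rose, 6 fell and 3 did not pass (median 1.25). Cdh5 (VE-cadherin), with 2 reads in the ES libraries, was at 6.82 and 6.50 FPKM at D28, and the VEGF receptor Kdr rose from 0.70 and 0.80 to 9.49 and 8.46 (3.28 ± 0.13). Pecam1, which ES cells also express, fell from 53.2 and 47.8 to 5.32 and 5.88 FPKM (-3.47 ± 0.08), as did Eng (26.0 and 20.3 to 3.48 and 3.37). Globin genes were near 0 at both ends: Hbb-y, Hba-x and Hba-a2 had no count in any of the 4 libraries. Of 13 erythroid genes tested 2 rose, 4 fell and 7 did not pass, these 3 globins among the last. Macrophage genes were present at D28, with 17 of 21 tested higher, 3 lower and 1 not passed (median 5.13, or 4.29 at the bound). Lyz2 had no count in ES cells and 24.4 and 21.9 FPKM at D28, C1qb was at 5.44 and 4.90, and the receptor Csf1r at 5.22 and 4.82, from 3 reads. Laptm5, often taken as a blood cell gene, fell from 60.1 and 59.5 to 9.29 and 9.67 FPKM. All 4 mast cell and lymphocyte genes tested fell, from levels of 1.86 FPKM or less. The antigen presentation, complement and interferon list rose in 21 of 26 members, with none lower and 5 not passed (median 3.37). B2m, the light chain of MHC class I, went from 14.7 and 17.9 to 181 and 181 FPKM (3.17 ± 0.10) and the peptide transporter subunit Tap2 from 0.20 and 0.33 to 11.2 and 11.9. Irf1 was at 12.1 and 14.4 FPKM, then 15.6 and 14.3 (adjusted p = 0.196), with a sign that turned with library size.

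Hox genes, which give position along the body axis, were low at both ends. Of 34 tested 7 rose, 15 fell and 12 did not pass (median -0.95), and the summed level of the list fell from 40.8 and 51.8 FPKM to 24.3 and 24.7. The largest falls were of posterior genes: Hoxb13 went from 3.25 and 3.81 to 0.17 and 0.17 FPKM (-4.64 ± 0.41) and Hoxc12 from 4.48 and 6.49 to 0.34 and 0.47. Hoxc13, the most abundant of them in ES cells, fell from 7.12 and 9.76 to 1.54 and 1.60 FPKM. Anterior Hoxb2 (0.17 and 0.34 to 2.15 and 2.23) and Hoxb3 (0.03 and 0.05 to 0.70 and 0.83) rose, as did posterior Hoxa11 from a trace. Without the second ES library the median was -0.80. In limma on log2(FPKM + 1) or log2(FPKM + 0.1) 8 fell. Those fits kept only genes that reached 1 FPKM in more than 1 control library, so members under it could not pass there. Hox transcripts overlap antisense genes and the labels state no strand, so such reads cannot be told apart.

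Imprinted growth genes were among the most abundant at D28. Of 20 imprinted genes 15 rose and 5 fell (median 3.04). Igf2, the fetal growth factor, went from 2.30 and 1.53 to 1427 and 1614 FPKM (9.24 ± 0.15, adjusted p = 2e-14), Dlk1 from 1.67 and 1.24 to 368 and 369 (7.75 ± 0.11) and Gnas from 93.3 and 107 to 740 and 781. Grb10, Phlda2, Snrpn, Impact and Zdbf2 fell, by 1.38 (Phlda2) or less on the log2 scale. Of these 5, 2 passed lower with library size as the scaling. Trophoblast genes, the extraembryonic lineage ES cells rarely form, were split, with 11 of 16 tested higher, 4 lower and 1 not passed (median 3.43, or 1.87 at the bound). Of its placental genes Prl3d1 and Prl2c2 stayed under 1 FPKM. Outside the list, and picked after their values were seen, the placental genes Prl2c3 (7.69 and 7.75 FPKM), Ctsj (6.09 and 5.64), Prl2c5 (3.56 and 3.95) and Prl2a1 (1.27 and 1.78) were among the 234 on at D28 alone; the Prl2c genes are near-identical copies and so uncertain. Peg10 and Krt8 were high but belong to other lists as well. Eomes (3.05 and 3.72 to 0.93 and 0.82 FPKM) and Tfap2c (29.6 and 29.1 to 7.04 and 7) fell. Of 4 genes of the Y chromosome in the tables, Ddx3y (11.3 and 10.3, then 10.1 and 9.73 FPKM), Eif2s3y and Uty were present at both ends; 2 fell, 1 rose and 1 did not pass, and with library size as the scaling 1 fell.

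Housekeeping sets moved by less, and mostly downward. Of 26 cytosolic ribosomal protein genes 25 fell and none rose (median -0.82; -0.52 and 23 lower with library size as the scaling). Of 24 respiratory chain genes 23 fell (median -0.89; 21 lower and 1 higher with library size). Cox5a was at 472 and 475 FPKM in ES cells and 144 and 145 at D28 (-2.01 ± 0.09), while Ndufa2 was at 70.8 and 60.5, then 78.3 and 84.0 (adjusted p = 0.962; 0.30 and passed with library size). Of 21 cholesterol synthesis genes 19 fell and 1, Sc5d, rose (median -1.37), Sc5d by 0.24 and not without the first ES library, with Fdps going from 165 and 163 to 44.0 and 42.8 FPKM. Glycolysis was divided: 13 of 24 fell, 6 rose and 5 did not pass (median -0.71), and with library size 13 fell and 10 rose. The neuronal-type glucose transporter Slc2a3 fell from 548 and 648 to 197 and 195 FPKM (-1.90 ± 0.07), and Gapdh, a common reference gene, from 4878 and 6348 to 2134 and 2096 (-1.70 ± 0.10). Of the 10 most abundant genes in ES cells, 8 were also among the 10 most abundant at D28: Eef1a1, Gapdh, Rps2, Ftl1, Rpl23a, Rplp1, Rpl41 and Rps23. At D28 Tpt1 and Rps14 stood in place of Ptma and Rpl32; the change of Rps14 did not pass, and its sign turned with library size.

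Among the related genes paired here, a fall of one beside a rise of the other was more frequent than an exchange of their order. Of 38 pairs, the first named for ES cells and the second for differentiated tissue, the first fell and the second rose in 20, both fell in 9, both rose in 3, and the first rose and the second fell in 1 (Lin28a and Lin28b). In the other 5, at least 1 gene did not pass or was not tested. The pairs were chosen with earlier results of these data known, which favours a fall of the first and a rise of the second. Over all genes tested, 38.2% fell and 45% rose. Eno1 enters as the first gene of both enolase pairs. The small falls of Atp2a2 and Rbfox2, counted among the 20, were lost with library size as the scaling, where their signs turned without passing. The gene with more FPKM in ES cells was the first in 36 pairs, and at D28 it was still the first in 30 of these and the second in 6. In the nuclear lamina, Lmnb1 went from 165 and 147 to 41.9 and 43.7 FPKM (-2.17 ± 0.06) and Lmna, the A-type lamin of differentiated cells, from 15.3 and 16.5 to 71.4 and 73.2 (2.08 ± 0.08), so the order was exchanged. The methylcytosine dioxygenases did the same, with Tet1 at 24.1 and 23.6, then 2.98 and 2.64 FPKM, and Tet3 at 1.86 and 2.07, then 10.4 and 10.9. So did the DNA methyltransferases, Dnmt3b falling from 18.9 and 9.41 to 2.92 and 3.14 and Dnmt3a rising from 6.76 and 5.79 to 21.6 and 20.6. The other 3 exchanges were of Slc25a5 with Slc25a4 (ADP/ATP carriers), Slc2a3 with Slc2a1 (glucose transporters) and Hk2 with Hk1 (hexokinases). That of the carriers rests on the first ES library (398 FPKM of Slc25a5 and 292 of Slc25a4), since in the second Slc25a4 was already as high (350.2 and 355).

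Of the ATPase genes of the BAF chromatin remodelling complex, Smarca2 rose from 0.74 and 0.97 to 34.7 and 33.8 FPKM (5.13 ± 0.09). Smarca4 fell but stayed above it, at 71.4 and 67.8, then 45.5 and 48.2 (-0.87 ± 0.05). Bulk RNA does not show which subunits a cell or a complex holds. The neuronal actin-like subunit Actl6b reached 0.84 and 0.80 FPKM against 23.3 and 23.1 for Actl6a. The muscle form of a cytochrome oxidase subunit came up from a low level, Cox6a2 going from 0.08 and 0.65 to 8.36 and 8.51 FPKM beside 439.9 and 454 for Cox6a1; Cox7a1, the muscle form of another subunit, fell instead, from 35.5 and 49.8 to 9.42 and 10.8 (-2.38 ± 0.18). Mycn fell from 46.0 and 33.2 to 18.9 and 19.98 FPKM as Myc rose from 0.90 and 0.35 to 8.41 and 8.65. The linker histone H1f0 rose from 19.9 and 16.9 to 117 and 110 FPKM; its replication-dependent partner Hist1h1b had too few counts to test.

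**Figure D4:**
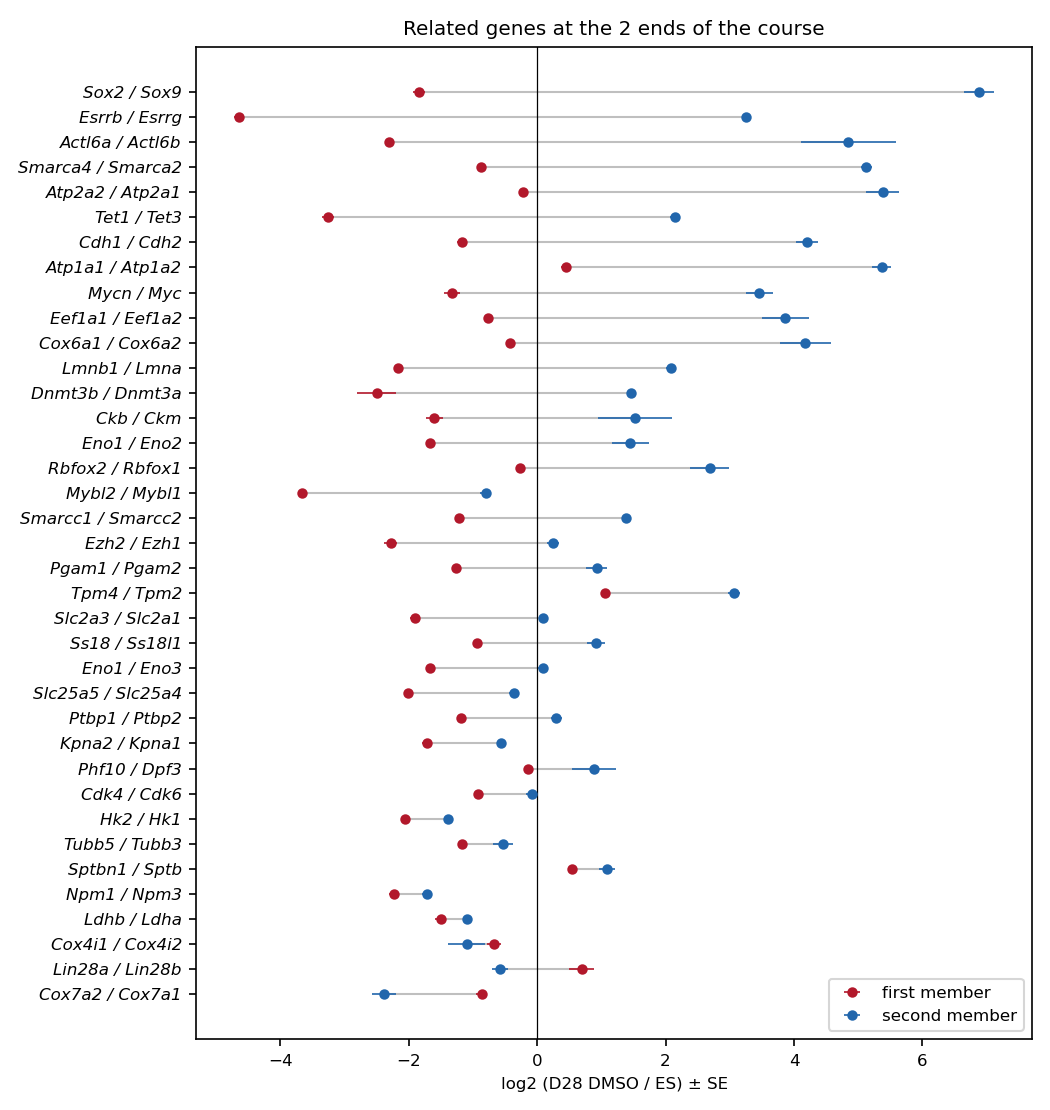
Log2 change from ES cells to D28 DMSO embryoid bodies (± SE) for the first (red) and second (blue) gene of the 37 pairs in which both were tested. Esrrg, not listed in ES cells, is drawn at its lower bound without an error bar; the second gene lies to the right of the first in all but the Cox4i, Lin28 and Cox7a pairs at the bottom, and the signs of Atp2a2, Rbfox2, Phf10 and Cdk6 turn with library size as the scaling.

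The days between show when the distance was covered. For genes at least 4-fold apart at the ends, the day on which the DMSO libraries first passed the midpoint on log2(CPM + 0.5) was taken. Of the 1128 lower genes 46.6% had passed it by day 4, and 2.22% not until day 28. Of the 3616 higher genes 25.2% had passed by day 4, 29.7% did so at day 9, and 15.8% not until day 28. By day 4 the median lower gene had covered 45.3% of its change and the median higher gene 17.4%. The lists had courses of their own. The median member of the naive list fell from 7.45 in ES cells to 4.85 at day 4 and then stayed between 5.06 and 5.25 from day 9 to day 18, and was at 4.81 at D28, so it fell as low at day 4 as at any later day but the last. The S phase and mitosis list was at 7.87 in ES cells, 7.84 at day 4 and 7.38 at day 12, then 6.75 at day 18 and 5.99 at D28, so its fall came late. The fibroblast list climbed at each step (1.09, 1.96, 4.32, 5.44, 7.42 and 8.36 from ES cells to D28). The squamous list stayed between -0.76 and 0.68 until day 18 and was at 5.07 at D28. The neuron list peaked in between, at 5.24 at day 18 against 1.43 in ES cells and 2.83 at D28, and the liver and yolk sac list at 5.51 at day 9 against 4.22 at D28.

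The genes on at D28 alone came late, which the choice of genes with no count in ES cells favours. No other set of genes was counted in this way. Of the 234, 9 were at 1 FPKM or more in both DMSO libraries at day 4, 29 at day 9, 41 at day 12 and 92 at day 18, while 136 reached it on none of these days. At lower levels they were there sooner: 124 were listed in at least 1 day 4 DMSO library and 216 in at least 1 of day 18.

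**Figure D5:**
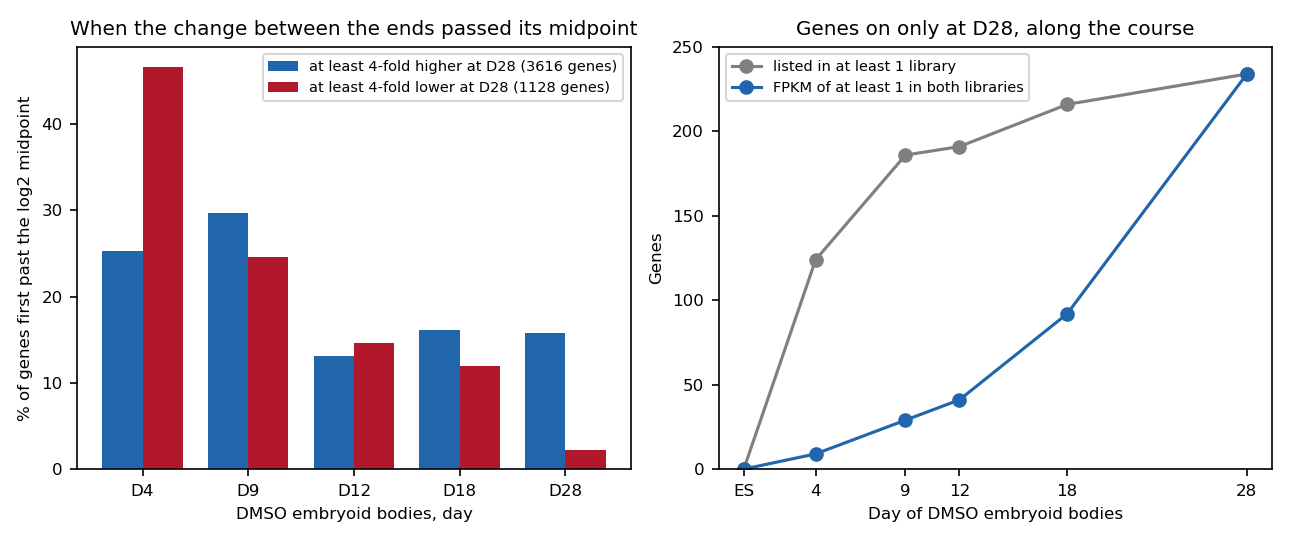
Left, share of genes at least 4-fold higher (blue, 3616) or lower (red, 1128) at D28 whose level first passed the log2 midpoint between the ends on each day. Right, how many of the 234 genes on at D28 alone were listed in at least 1 DMSO library (grey) or at 1 FPKM or more in both (blue) on each day; lower genes passed early, at 46.6% by day 4, and 136 of the 234 reached 1 FPKM on no earlier day.

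Comparing the ends misses genes that are high in between. At least 4-fold above both ends on some day between, with adjusted p under 0.05 against each, were 551 genes (3.4% of those tested), of which 230 did not pass between the ends themselves. Below both ends by as much were 544 genes (3.36%). The examples here were picked after their values were seen, from genes named above or among the most abundant. Utf1, a chromatin factor of primed cells, was at 520 FPKM at day 4 against 58.7 and 78.7 in ES cells and 23.8 and 24.8 at D28. Dnmt3b was at 198 FPKM at day 4, above both ends, a course that its fall between the ends does not show. Lin28a reached 172 FPKM at day 9, Afp 180 FPKM at day 12 and Tubb3 137 FPKM at day 18; the last was close to its ES level again at D28.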

How the data were processed

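RNA of 22 libraries was sequenced. Expected counts per gene were deposited by the authors, 1 table a library, with a counting tool not given in the sources used here. FPKM stand beside them, per the file headers. HISAT and Bowtie2 and the build GRCm38.p5 are named in the submitters' processing notes. Strand is not stated.

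Counts were rounded and fitted with edgeR 4.0.16 (R 4.3.3; TMM, filterByExpr at 10 and 15 counts, robust quasi-likelihood) over the 12 control libraries in 6 groups, with 6 residual degrees of freedom; the contrast was D28 over ES, Benjamini-Hochberg adjusted over 16203 genes. DESeq2 1.42.0 and limma 3.58.1 served as alternatives. On simulated data with the same spread in all groups, 61.2% of 1.5-fold and 88.1% of 2-fold changes were recovered for this contrast (15729 genes). Few genes were changed there and the ES libraries had no wider spread, so these shares do not give the power of the real comparison. The 4 libraries held 18158583 to 18738348 counts, so 3 counts, the floor used for bounds, come to about 0.16 CPM (counts scaled to library depth); bounds cover counting error only.

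Named were the 10 largest rises and falls at 10 FPKM or more, the 10 most abundant genes of each end and of those on at 1 end alone, up to 4 members of smallest p per list with other members where a paragraph turns on them, and both genes of each pair. Members, lists and pairs were chosen with earlier results of these data known. Of 821 list members 805 were in the tables. Same-numbered libraries did not deviate together (r from -0.03 to 0.05), so numbers were not taken to pair libraries. Promoters are RefSeq's, on GRCm38.p6.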

Additional observations from a re-analysis of the deposited data

How the results depend on the processing

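Of 256 genes tested that the naming rule takes, 22 changed their call or direction under at least 1 of 14 other fits, 14 of them by losing the call and 5 by turning sign. Many of the 256 were named for a large change or a small p in the main fit, which favours a stable call. Some were filtered out of the limma, stricter-filter and 4-library fits and could not change there. Asking for a 2-fold change as well left 8459 genes, 3273 of them lower. Genes on in ES cells alone numbered 16 at 0.5 FPKM, 1 at 5 FPKM, 17 where under 0.1 FPKM counted as off, and 12 to 18 without 1 library; those at D28 numbered 368, 50 and 755, 355 at 1 CPM, and 255 to 385 without 1 library. The sign turned with library size, limma on log2(FPKM + 0.1) and limma on log2(FPKM + 1) for Rps14 (0.11, 0.12 and 0.12), Phf10 (0.163, 0.0636 and 0.0622), Atp2a2 (0.0776, 0.0906 and 0.0899), Cdk6 (0.22, 0.22 and 0.17) and Rbfox2 (0.0270, 0.141 and 0.135). Cdk6 ran from -0.24 to 0.11 without 1 library. List medians turned for 2-cell-like genes (1.95 in a fit of the 4 libraries alone), for the Y chromosome (0.0759 with library size) and for retina and pigment (-0.27 and -0.12 with limma at 0.1 and 1, -0.43 with 4 libraries, -0.39 with a stricter filter, -0.46 to 0.97 without 1 library). The limma, 4-library and stricter-filter fits each kept their own set of genes, so their list medians can cover fewer members. Further list members whose sign turned with library size were Fn1 (0.21), Irf1 (0.17) and Uty (0.28). The cause was not tested. With the replicate block 13409 genes passed, 7262 higher and 6147 lower, and no call among the 256 changed. Depth sets how low a gene at 0 can be, at 3 counts a library.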
